A study of Mus musculus with 5 samples.

Results

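The hypoxia-inducible factor (HIF) genes described here are 10 genes chosen by name: the HIF alpha subunits Hif1a and Epas1, the oxygen sensors Egln1 and Egln3, and the target genes Vegfa, Adm, Slc2a1, Pdk1, Bnip3 and Ddit4. All 10 were found among the 46078 genes listed for each library, and all 10 were among the 13870 genes with a mean level of at least 1 TPM (a length-corrected share of the transcripts in a library, scaled to the same total in each). The rule names the genes and applies no threshold to a measured value, but the list was drawn up with earlier results of these data known. The cells were neural stem and precursor cells (NPC) of the adult subventricular zone, the germinal layer along the lateral ventricles of the mouse forebrain. All 5 RNA-seq libraries came from C57BL/6 mice labelled female, aged 5 to 8 weeks and without a mutation, although the study's methods give an older age for its subventricular zone mice. Per the study's methods, such cells were first expanded in culture as passaged spheres with the growth factors EGF and FGFb. The cells had been plated on poly-D-lysine the day before and received PBS as a sham exposure, and RNA was taken 1 h later in 2 libraries (replicates 1 and 2) or 8 h later in 3 libraries (replicates 13, 14 and 15). The methods define a biological replicate of these cells as 1 animal. The oxygen level of the cultures was not given in the sources used here, and both groups were controls, so the comparison is one of time after the sham exposure and not of oxygen supply.

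HIF is a transcription factor made of an oxygen-regulated alpha subunit, encoded by Hif1a or Epas1, and a stable partner, encoded by Arnt or Arnt2. When oxygen is present, prolyl hydroxylases of the Egln family mark the alpha subunit, the von Hippel-Lindau protein (Vhl) recognises the mark, and the subunit is degraded. When oxygen falls, the alpha subunit accumulates and genes for blood vessel growth, glucose uptake, glycolysis, mitophagy and restraint of growth are transcribed, with Egln1 and Egln3 among them as negative feedback. Regulation of the alpha subunit is thus largely a matter of protein stability, which RNA levels do not show.

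The genes of this pathway are often recognised by the core of the hypoxia response element, the letters ACGTG or GCGTG, and this core was searched for on both strands in RefSeq gene start windows of GRCm38.p6, each running from 250 bases before to 50 bases after the start. Windows were found for 9 of the 10 genes. The 250 bases before the start are shown for 5 genes whose levels did not overlap between the sets of libraries described further on, and for Bnip3, the gene with the most matches, written on the strand of the gene from 5′ to 3′ with each match in capitals (a match on the other strand reads CACGT or CACGC).
Vegfa (chr17:46032378-46032627, minus strand): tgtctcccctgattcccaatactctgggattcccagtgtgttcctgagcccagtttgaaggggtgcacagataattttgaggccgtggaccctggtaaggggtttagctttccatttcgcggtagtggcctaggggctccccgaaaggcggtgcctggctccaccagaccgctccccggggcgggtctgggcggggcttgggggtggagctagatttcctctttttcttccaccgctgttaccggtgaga
Adm (chr7:110627407-110627656, plus strand): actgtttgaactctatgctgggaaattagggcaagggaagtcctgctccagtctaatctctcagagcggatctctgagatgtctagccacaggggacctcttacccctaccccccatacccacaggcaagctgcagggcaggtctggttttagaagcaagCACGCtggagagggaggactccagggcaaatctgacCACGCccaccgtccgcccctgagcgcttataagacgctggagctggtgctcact
Pdk1 (chr2:71872974-71873223, plus strand): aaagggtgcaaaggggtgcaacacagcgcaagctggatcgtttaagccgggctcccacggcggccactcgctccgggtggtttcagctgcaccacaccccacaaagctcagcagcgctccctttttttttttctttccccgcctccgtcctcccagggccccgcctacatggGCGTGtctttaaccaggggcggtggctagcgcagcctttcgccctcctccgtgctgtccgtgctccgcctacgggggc
Egln1 (chr8:124949255-124949504, minus strand): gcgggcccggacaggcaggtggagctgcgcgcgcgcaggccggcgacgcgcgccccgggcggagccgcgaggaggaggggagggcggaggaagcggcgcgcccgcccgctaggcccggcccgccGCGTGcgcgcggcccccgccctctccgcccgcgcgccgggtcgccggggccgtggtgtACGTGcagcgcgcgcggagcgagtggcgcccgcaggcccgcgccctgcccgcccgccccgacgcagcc
Egln3 (chr12:54203875-54204124, minus strand): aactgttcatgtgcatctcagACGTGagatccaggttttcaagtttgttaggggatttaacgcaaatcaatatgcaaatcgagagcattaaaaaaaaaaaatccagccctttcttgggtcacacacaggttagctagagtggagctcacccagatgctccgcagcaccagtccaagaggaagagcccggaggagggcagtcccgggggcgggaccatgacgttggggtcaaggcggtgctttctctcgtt
Bnip3 (chr7:138909507-138909756, minus strand): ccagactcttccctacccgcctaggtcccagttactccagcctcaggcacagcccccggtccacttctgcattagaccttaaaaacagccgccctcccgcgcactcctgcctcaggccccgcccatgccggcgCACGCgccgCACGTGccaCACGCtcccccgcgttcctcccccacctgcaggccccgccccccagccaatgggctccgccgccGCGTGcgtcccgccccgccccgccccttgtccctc

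In the first RefSeq window of each gene, 8 of the 9 held ACGTG or GCGTG, against 43.8% of all 32817 windows. With a match in any window of a gene counted, all 9 had 1, against 46.7% of 26994 genes with at least 1 window. The window of Hif1a starts from a RefSeq start 6492 bases inside the gene as the expression tables bound it. Vegfa was the gene without a match in its first window, and a second Vegfa window inside the gene, at chr17:46025114-46025413, held 2 matches. Bnip3 had 5 matches, Hif1a 3, and Slc2a1, Pdk1, Egln1, Adm and Ddit4 2 each, while Egln3 had 1, which lay 229 bases before the start. In Hif1a and in Bnip3, 2 of these matches were the strands of 1 CACGTG site, an E-box read by many other factors, which was present in 7.15% of all windows. The first windows had a GC content between 54.7% in Egln3 and 86.0% in Egln1, against a median of 52.7% over all windows. The letters were matched as a description, and no binding was measured in these cells. Of the matches of Pdk1, that starting 2 bases before the gene start runs past the stretch shown and is not in capitals. The last 13 bases shown for Bnip3 lie inside the gene as the expression tables bound it.

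Depth was similar across libraries, with 13681 to 13967 genes at 1 TPM or more and a coverage per unit of FPKM, a measure of depth, from 5.57 to 7.18. The deposited count table listed 7599 genes, and its columns summed to between 13988166 and 18572154 counts over those genes alone. It held 7 of the 10 genes, without Bnip3, Egln1 and Egln3. The library identifiers in the labels fall into 2 number series, where series 1 holds both 1 h libraries and 8 h replicate 14, and series 2 holds 8 h replicates 13 and 15. The series 1 libraries went against the female label, since their 4 Y-linked genes summed to between 137.6 and 180.9 TPM and their Xist level was between 0.0285 and 0.0611 TPM, whereas series 2 had 165.3 and 199.7 TPM of Xist and at most 0.0253 TPM of the Y-linked genes. Identifier series and sex-chromosome transcripts therefore divided the libraries alike and cannot be told apart, and all 10 genes lie on autosomes. Within the 8 h group, the count column named replicate 13 matched the TPM table of replicate 14 (78.3% of 7337 genes within 0.1 log2), the column named replicate 15 matched the table of replicate 13 (78.2%), and the column named replicate 14 matched none (24.6% at most). Whether columns or tables carry exchanged names cannot be told apart from this match. TPM was read first because its tables list all genes, and counts are given by column name. The series of an 8 h library is that of the name its TPM table was deposited under, which is also how Xist divides, and every series value below depends on those names.

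The labelled cell type was checked by its markers. All 11 neural stem and precursor markers were above 1 TPM, and their sum was between 11439 and 14601 TPM. The endothelial list had 2 of 7 genes with a mean above 1 TPM and Cdh5 and Cldn5 at 0. By the mean, the pericyte list had 1 of 5 and the microglial list 0 of 6, with Aif1 and Tmem119 at 0. Microglial P2ry12 had 1.41 and 1.29 TPM at 1 h against 0.488, 0.411 and 0.569 TPM at 8 h. The ependymal list had 1 of 4 by the mean, Foxj1. Its sum was 23.7 and 27.5 TPM at 1 h against 18.8, 16.6 and 16.3 TPM at 8 h. Foxj1 alone had 22.4 and 26.7 against 17.2, 15.4 and 14.4 TPM. Of all genes, 9.43% were lower at 8 h without overlap in this way. Neuronal markers summed to between 213 and 460 TPM, and oligodendrocyte markers to between 35.5 and 164 TPM. The neuronal sum was highest in 8 h replicate 14 through Map2, at 405 TPM there against 173 to 217 TPM in the other libraries. None of the other neuronal markers was highest in that library, and Dcx was at its lowest there, at 4.59 TPM.

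By mean TPM, the order of the 10 genes was Ddit4, Hif1a, Egln1, Adm, Slc2a1, Egln3, Vegfa, Bnip3, Epas1 and Pdk1. The means ran from 146.3 TPM for Ddit4 and 111.5 TPM for Hif1a to 11.9 TPM for Epas1 and 5.63 TPM for Pdk1, which placed Ddit4 above 91.8% and Pdk1 above 21.7% of the 13870 genes. Only the steps from Hif1a to Egln1 and from Adm to Slc2a1 separated neighbours whose ranges over the 5 libraries did not overlap. The other 7 pairs of neighbours overlapped, and Vegfa and Bnip3, at 18.0 and 17.1 TPM, stood in that order in 3 of 5 libraries.

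**Figure D1:**
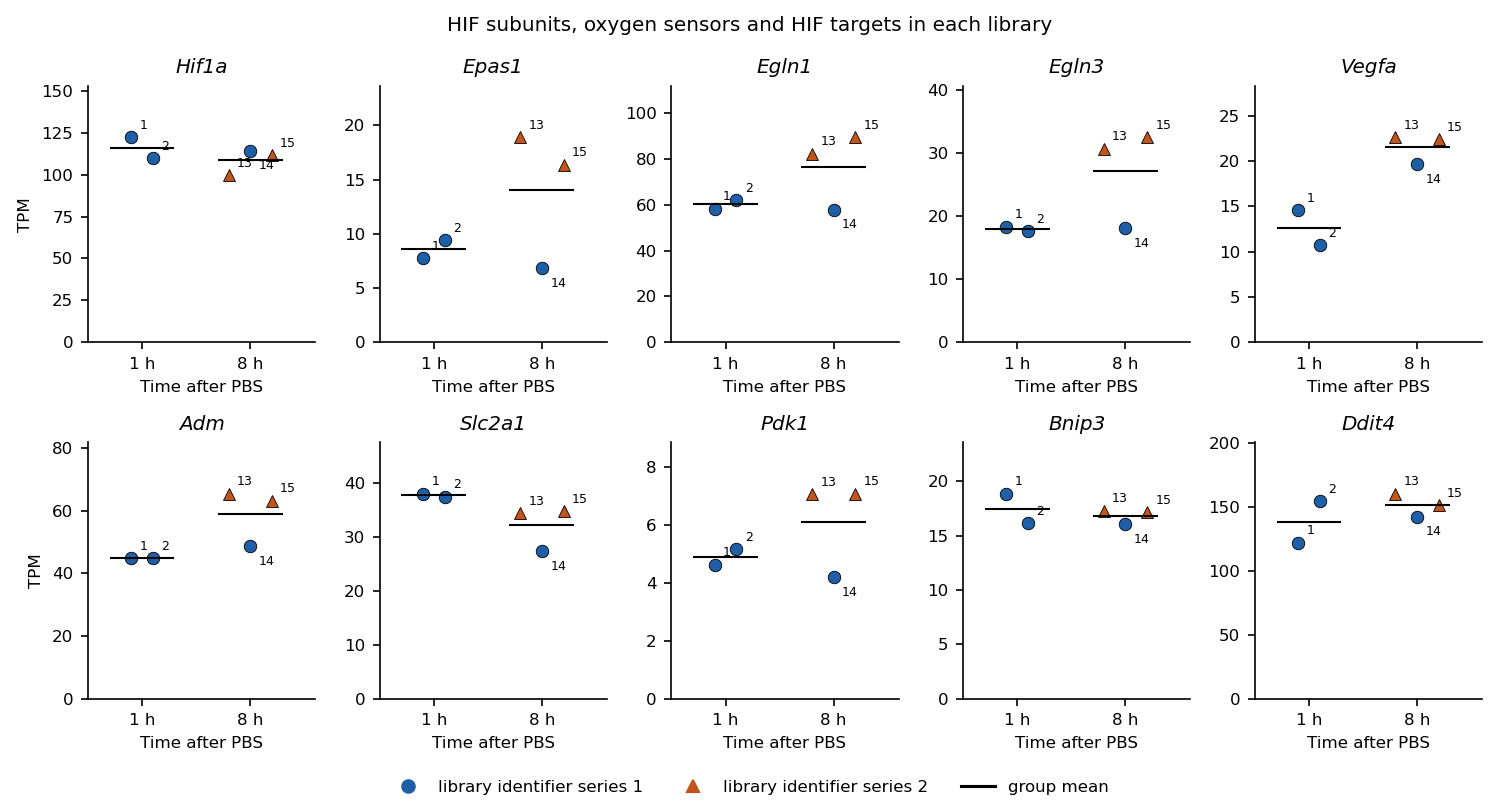
TPM of the 10 genes in each library (vertical axes from 0, a scale for each gene), 1 h and 8 h after PBS, where circles are identifier series 1, triangles are series 2, numbers are replicates and lines are group means. Vegfa, Adm and Slc2a1 do not overlap between 1 h and 8 h, and for Epas1, Egln1, Egln3, Pdk1 and Adm the 8 h replicate 14 lies with or near the 1 h libraries, at 6.87 TPM of Epas1 against 18.9 and 16.4 TPM in series 2.

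Across the whole gene set, the comparison of 8 h with 1 h passed the test for 0 of the 10 genes, with limma on log2(TPM + 1) and the call set at a Benjamini-Hochberg adjusted p of 0.05 or less together with a log2 fold change above 1 in either direction. The same test called 6 of all 13870 genes (0.0433%). On the side of 8 h, 2 of the 10 genes, Vegfa and Adm, had an unadjusted p under 0.05, where 9.52% of all genes did. On the side of 1 h, 0 of the 10 did, where 2.82% of all genes did. The groups did not overlap for 2 genes higher at 8 h (Vegfa and Adm), against 23.7% of all genes, and for 1 gene lower at 8 h (Slc2a1), against 9.43%, so these shares lie near the background. The fitted difference was positive for 7 genes and negative for 3 (65.9% and 34.1% of all genes), and its median was 0.28 on the log2 scale beside 0.10 over all genes. Because these are bulk samples, fewer cells of a type and less RNA per cell cannot be told apart in any of these values.

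Hif1a (chr12:73901375-73947530, plus strand), which encodes the alpha subunit found in most cells, had 122.3 and 109.6 TPM at 1 h against 99.6, 114.3 and 111.6 TPM at 8 h. Replicates 14 and 15 lay inside the 1 h range and replicate 13 under it, so the groups overlapped. The fitted difference was -0.10 ± 0.11 (SE) on the log2(TPM + 1) scale, with a limma adjusted p of 0.668. Its highest library was 1.23 times its lowest, and among the 10 genes Bnip3, at 1.18 times, varied less.

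Epas1 (chr17:86753907-86833410, plus strand) encodes the second alpha subunit, HIF-2α, best known from endothelium, kidney and lung. It had 7.75 and 9.43 TPM at 1 h against 18.9, 6.87 and 16.4 TPM at 8 h. Replicate 14 was the lowest of the 5 libraries and replicates 13 and 15 the highest, so the 8 h group enclosed the 1 h group. The means were 8.59 ± 1.19 (SD) at 1 h and 14.0 ± 6.34 at 8 h, and the fitted difference of 0.55 ± 0.41 had a limma adjusted p of 0.541. Hif1a transcripts outnumbered those of Epas1 by a TPM ratio of 15.8 and 11.6 at 1 h and of 5.27, 16.6 and 6.82 in 8 h replicates 13, 14 and 15. That ratio was thus between 11.6 and 16.6 in every series 1 library and under 7 in both series 2 libraries. Of the other subunits, Arnt2 was the more abundant beta partner, at 86.3 to 98.5 TPM, and Arnt stood at 19.7 to 22.8 TPM. Hif3a, which encodes a further alpha subunit, did not exceed 0.223 TPM.

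The oxygen sensor Egln1 (chr8:124908596-124949254, minus strand), which encodes the main HIF prolyl hydroxylase PHD2, had 58.3 and 62.2 TPM at 1 h against 82.3, 57.9 and 89.5 TPM at 8 h. Replicate 14 fell just under the 1 h values and the other 8 h libraries were above them. The fitted difference was 0.32 ± 0.20 with a limma adjusted p of 0.483. Egln3 (chr12:54178981-54203860, minus strand), which encodes the strongly inducible PHD3, had 18.3 and 17.6 TPM at 1 h against 30.7, 18.1 and 32.5 TPM at 8 h. Its replicate 14 lay between the 1 h libraries, and the group means were 18.0 ± 0.459 and 27.1 ± 7.85 TPM (0.52 ± 0.26 log2, limma adjusted p 0.433). Egln1 exceeded Egln3 in every library, by a TPM ratio of 3.19 and 3.52 at 1 h and of 2.69, 3.21 and 2.76 at 8 h.

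The wider list for oxygen sensing and degradation of the alpha subunit held 12 genes, Egln1 and Egln3 included, and all 12 were tested. None was called and none had an unadjusted p under 0.05. Of the 12, 7 had a positive and 5 a negative difference (65.9% and 34.1% of all genes), and the median was 0.055 beside 0.10 over all genes. The groups did not overlap for 1 gene higher at 8 h (Siah2), against 23.7% of all genes, and for 4 lower at 8 h (Hif1an, Elob, Cul2 and Siah1a), against 9.43%. Elob, an adaptor of the Vhl ubiquitin ligase listed as Tceb2, was the most abundant of them, at 515 and 588 TPM at 1 h against 503, 492 and 434 TPM at 8 h. Vhl itself had 37.9 and 38.1 TPM at 1 h against 46.4, 37.2 and 46.8 TPM at 8 h, with replicate 14 again at the level of the 1 h libraries.

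Vegfa (chr17:46016993-46032377, minus strand), the growth factor that drives blood vessel growth and also acts on neural precursors, had 14.6 and 10.7 TPM at 1 h against 22.6, 19.7 and 22.4 TPM at 8 h. Every 8 h library, replicate 14 included, was above both 1 h libraries. The means of 12.7 ± 2.75 and 21.5 ± 1.64 TPM gave a ratio of 1.70. The difference of 0.74 ± 0.16 on the log2 scale, or 0.63 after the median of all genes was subtracted, had an unadjusted p of 0.00418 and a limma adjusted p of 0.285, so it did not pass the test. It was larger than 96.9% of the differences of all genes tested. In the count table, Vegfa had 33.5 and 34.2 CPM (counts scaled to the same column total) at 1 h and 43.3, 43.6 and 51.4 CPM in the columns named 8 h. These groups did not overlap either, which was so for 1 of the 7 genes in the direction of 8 h, against 11.6% of the genes in that table, and for 0 of the 7 in the other direction, against 7.04%. By edgeR's quasi-likelihood test the difference was 0.42 ± 0.13 with an unadjusted p of 0.0177 and an adjusted p of 0.966.

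Vegfa was also read beside its receptors and relatives. Flt1, a receptor for it, had 10.96 and 13.6 TPM at 1 h against 9.71, 12.3 and 12.3 TPM at 8 h, while Kdr, its main signalling receptor, ranged from 1.07 to 1.97 TPM. The co-receptor Nrp1 had 6.99 and 6.87 TPM at 1 h against 13.4, 8.48 and 13.7 TPM at 8 h. Its groups did not overlap, and its difference of 0.67 had an unadjusted p of 0.0251 and did not pass adjustment. Vegfb, a related ligand, had 24.7 and 29.6 TPM at 1 h against 43.5, 23.2 and 40.7 TPM at 8 h, with the groups overlapping through replicate 14.

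Adm (chr7:110627661-110629820, plus strand), which encodes the vasodilator peptide adrenomedullin, had 44.8 and 44.9 TPM at 1 h against 65.5, 48.6 and 63.2 TPM at 8 h. The groups did not overlap, but replicate 14 was close to the 1 h libraries and the other 8 h libraries stood apart from it. The means were 44.8 ± 0.0902 and 59.1 ± 9.13 TPM, and the difference was 0.38 ± 0.15 (0.28 less the median of all genes) with an unadjusted p of 0.0452 and a limma adjusted p of 0.402. In the count table the columns overlapped, at 43.6 and 44.2 CPM against 47.5, 37.0 and 59.2 CPM. An antisense gene, Gm28863, overlaps Adm and reached 1.12 TPM at most. The receptor of adrenomedullin is encoded by Calcrl, at 13.2 to 18.9 TPM, together with a Ramp gene. Ramp2 ranged from 2.03 to 16.7 TPM, and Ramp3 stayed at or under 0.317 TPM.

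Slc2a1 (chr4:119108711-119137983, plus strand), the gene of the glucose transporter GLUT1, was the 1 gene of the set whose 8 h libraries all lay under the 1 h libraries. It had 38.1 and 37.5 TPM at 1 h against 34.4, 27.4 and 34.8 TPM at 8 h, with replicate 14 the lowest. The difference was -0.23 ± 0.14 (-0.33 less the median of all genes) with a limma adjusted p of 0.477. The count columns overlapped, at 80.1 and 80.1 CPM against 63.0, 86.1 and 73.1 CPM, where the highest was the column that matched no TPM table.

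Pdk1 (chr2:71873224-71903858, plus strand), which encodes a kinase that inhibits pyruvate dehydrogenase and so keeps pyruvate out of the mitochondrion's citric acid cycle, had 4.63 and 5.16 TPM at 1 h against 7.07, 4.19 and 7.09 TPM at 8 h. The replicate 14 library was the lowest of all and the other 8 h libraries the highest, and the difference of 0.24 ± 0.24 had a limma adjusted p of 0.629. The phosphatases that reverse this step were also measured. Pdp2 had 4.77 and 5.76 TPM at 1 h against 10.7, 6.69 and 9.88 TPM at 8 h, and Pdp1 had 12.2 and 8.20 TPM at 1 h against 4.90, 7.71 and 6.39 TPM at 8 h. Neither overlapped between the groups, one being higher and the other lower at 8 h, with differences of 0.67 and -0.60 and unadjusted p of 0.0243 and 0.0453 that did not pass adjustment. The enzyme subunit they act on, encoded by Pdha1, was the most abundant gene of the list of partners, at 276 to 326 TPM. Of the 24 genes in that list 22 were tested, 0 were called (0.0433% of all genes were), and 14 had a positive and 8 a negative difference, against 65.9% and 34.1% of all genes.

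Bnip3 (chr7:138890836-138909519, minus strand), a receptor on the outer mitochondrial membrane that marks mitochondria for mitophagy, had 18.9 and 16.1 TPM at 1 h against 17.3, 16.1 and 17.1 TPM at 8 h. Replicates 13 and 15 lay within the 1 h range and replicate 14 just under it, at 16.05 TPM against 16.11 TPM in 1 h replicate 2. The groups overlapped, and the difference was -0.05 ± 0.13 with a limma adjusted p of 0.855. Ddit4 (chr10:59949675-59951770, minus strand), whose product REDD1 restrains mTORC1 under hypoxia and other stress, had 122.1 and 154.7 TPM at 1 h against 160.5, 142.5 and 151.4 TPM at 8 h. The groups overlapped and the difference was 0.14 ± 0.13 with a limma adjusted p of 0.615. In the count table the column named 8 h replicate 14, which matched no TPM table, had 319.5 CPM of Ddit4 against 148.6 to 191.7 CPM in the other columns. No TPM table held a Ddit4 level that stood apart in this way.

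**Figure D2:**
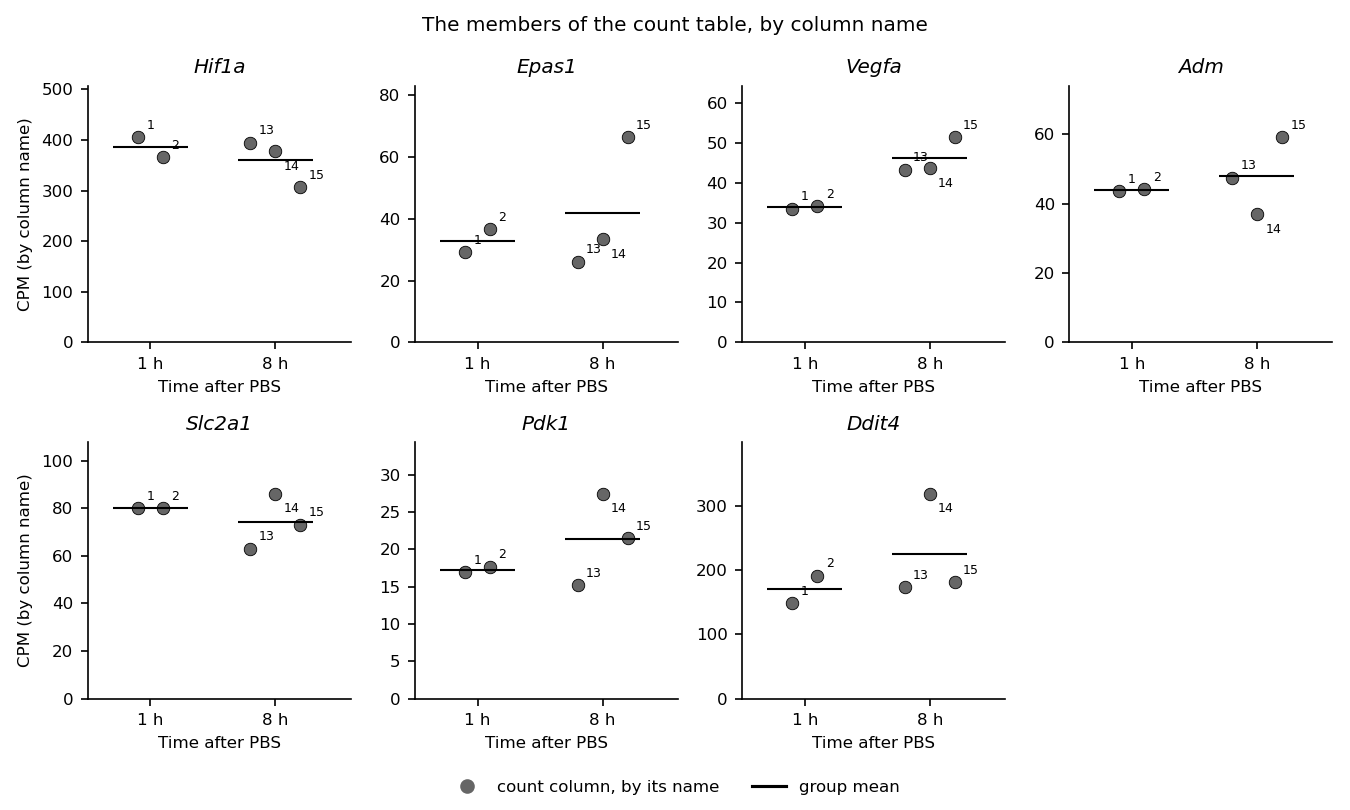
CPM of the 7 genes in the count table (vertical axes from 0, a scale for each gene), 1 h and 8 h after PBS, where points are count columns under their deposited names and lines are group means. Vegfa is the gene whose 8 h columns, at 43.3 to 51.4 CPM, all lie above the 1 h columns, and Ddit4 reaches 319.5 CPM in the column named replicate 14.

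By counts, 0 of the 7 genes and 0 of 7590 genes tested (0.0%) passed edgeR's test, and DESeq2 called 0 of the 7 as well. Of the 7, 1 gene, Vegfa, had an unadjusted p under 0.05, as did 199 of all genes with edgeR (2.62%) and 227 with DESeq2. Hif1a had a difference of -0.13 ± 0.14, Slc2a1 of -0.14 ± 0.15, Adm of 0.10 ± 0.20, Pdk1 of 0.28 ± 0.26, Epas1 of 0.32 ± 0.40 and Ddit4 of 0.37 ± 0.29, all with edgeR adjusted p of 0.966 or above. Bnip3, Egln1 and Egln3 rest on TPM alone.

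Within the 8 h group, the libraries differed for most of these genes. The median difference of the 10 genes from the 1 h mean was 0.45 in replicate 13 and 0.47 in replicate 15 but -0.04 in replicate 14 (log2 scale). This division was read after the values had been seen. All genes shifted in the same direction, though less: without replicate 14 the median time difference was 0.48 for the 10 genes and 0.14 over all genes. For 6 of the 10 genes the libraries of series 1 and series 2 did not overlap, and all 6 were higher in series 2: Epas1, Vegfa, Pdk1, Egln3, Egln1 and Adm. Of all genes, 39.8% were higher in this way and 13.5% lower, and the count of 6 is read against that background. After median-ratio scaling of the libraries the 10 genes gave 6 higher and 2 lower, and all genes 24.7% higher and 24.6% lower. Both series 2 libraries are also 8 h libraries, and for Vegfa replicate 14 was nearer to them than to the 1 h libraries.

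A fit with time and series together was used to read these apart, and the split between them rests on 1 library, 8 h replicate 14. The series difference had a limma adjusted p of at most 0.05 for 3 of the 10 genes, against 7.44% of all genes higher in series 2 and 1.65% lower, and an unadjusted p under 0.05 for 6, against 26.4% of all genes. These were Epas1 at 1.24 ± 0.18 (adjusted p 0.0162), Egln3 at 0.77 ± 0.12 (0.0219) and Egln1 at 0.56 ± 0.12 (0.0422). In TPM, Epas1 averaged 17.6 in series 2 and 8.01 in series 1, Egln3 31.6 and 18.0, and Egln1 85.9 and 59.5. Only Epas1 also exceeded a log2 difference of 1, as did 3.33% of all genes in that direction and 0.692% in the other. For Pdk1 (0.64 ± 0.17, limma adjusted p 0.0706), Adm (0.40 ± 0.11, 0.0809) and Slc2a1 (0.33 ± 0.11, 0.138) the series difference was positive and did not pass. Vegfa at 0.19 ± 0.19, Ddit4 at 0.13, Bnip3 at 0.09 and Hif1a at -0.12 had limma adjusted p between 0.598 and 0.731.

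With series in the fit, 0 of the 10 genes passed the test of time. The time difference of Vegfa was 0.61 ± 0.19 (unadjusted p 0.0202, limma adjusted p 0.441) and that of Slc2a1 was -0.45 ± 0.11 (unadjusted p 0.00759, limma adjusted p 0.371). These were the 2 of the 10 genes with an unadjusted p under 0.05, as had 1257 of all 13870 genes in this fit. For the oxygen sensors little was left, at 0.0072 for Egln3 and -0.06 for Egln1, and Epas1 and Pdk1 turned to -0.28 and -0.18. The median over the 10 genes was -0.04 beside 0.01 over all genes. Of the partner genes, Nrp1, Pdp2 and Pdp1 had time differences of 0.26, 0.30 and -0.34 in this fit.

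**Figure D3:**
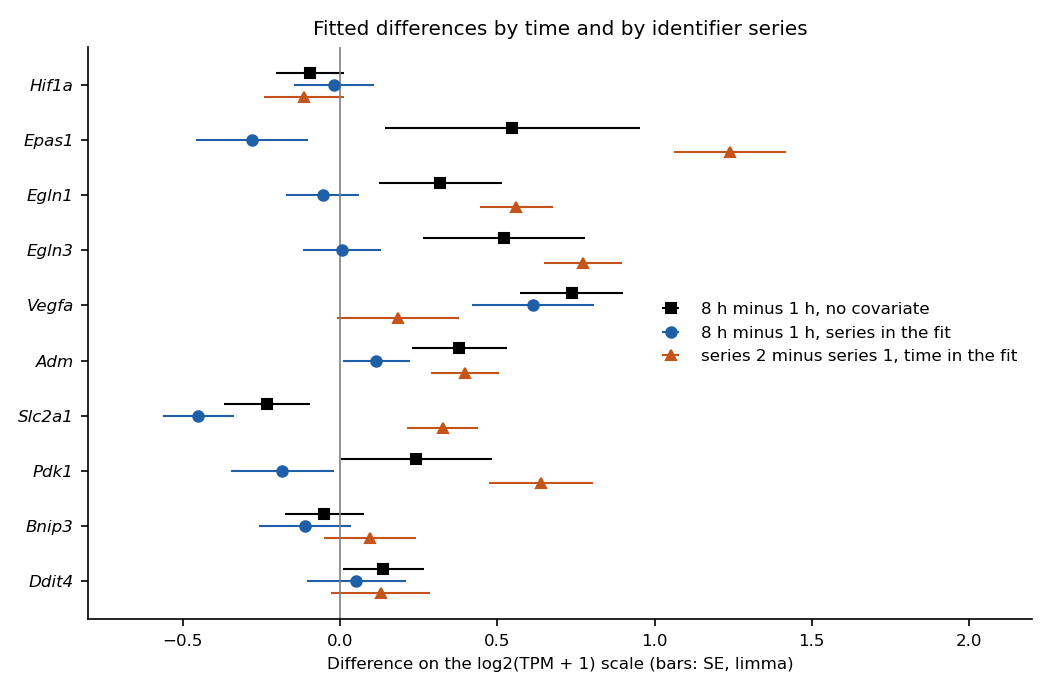
Differences on the log2(TPM + 1) scale for the 10 genes, as 8 h minus 1 h without a covariate (squares), 8 h minus 1 h with identifier series in the fit (circles) and series 2 minus series 1 in that same fit (triangles), with bars for the SE from limma. The time difference of Vegfa is 0.74 and 0.61 in the fits and passes the test in neither, and the series difference of Epas1 is 1.24, where the split between time and series rests on 8 h replicate 14.

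Without 8 h replicate 14, 5 of the 10 genes had a limma adjusted p of at most 0.05 (Epas1, Egln3, Egln1, Adm and Vegfa), where 19.9% of all genes did, and 0 of them also exceeded a log2 fold change of 1, where 4.1% did. In that comparison every 1 h library belongs to series 1 and every 8 h library to series 2, so time and series cannot be told apart. Other measures divided the libraries in the same way. Mitochondrially encoded genes held 10.7% to 11.1% of the TPM in series 1 and 6.23% and 6.30% in series 2, and the sum of the neural stem and precursor markers was 11439 to 12079 TPM in series 1 and 13525 and 14601 TPM in series 2. Most of that sum was Fabp7, and Nes went the other way, with 736 to 784 TPM in series 1 and 690 and 699 TPM in series 2. The pericyte list was nearly all Cspg4, a gene shared with oligodendrocyte progenitors, at 29.7 to 39.9 TPM in series 1 and 22.6 and 19.8 TPM in series 2, and its other 4 markers were under 1 TPM throughout. The oligodendrocyte markers summed to 113 to 164 TPM in series 1 and to 35.5 and 69.1 TPM in series 2. Their part in the series difference of Epas1, Egln3 and Egln1 was not tested. The endothelial markers, a lineage known for Epas1, summed to 12.1 to 15.5 TPM over all libraries with Cdh5 and Cldn5 at 0. Most of that sum was Flt1, at 9.71 to 13.6 TPM. Kdr, the other marker with a mean above 1 TPM, had 1.07 to 1.77 TPM in series 1 and 1.94 and 1.97 TPM in series 2. The part of this lineage was not tested either.

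The other known hypoxia targets were taken as a list of 40 genes, of which 35 had a mean of at least 1 TPM. None was called. With an unadjusted p under 0.05, 6 genes were higher at 8 h and 1 was lower (9.52% and 2.82% of all genes), and the groups did not overlap for 10 higher and 3 lower, with a median difference of 0.14 beside 0.10 over all genes. Against the 23.7% and 9.43% of all genes that did not overlap, these shares were close to the background. The glycolytic enzyme genes ranged widely in level. Gapdh had the highest mean of the list, at 853 to 1019 TPM, followed by Pgk1 at 848 to 1071 TPM, while Pfkl stood at 21.5 to 30.7 TPM. Epo, the classical kidney and liver target, was at 0 in all libraries, and Car9, Car12, Slc16a3 and Lox had means under 1 TPM.

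Of the 6 genes on the higher side, the inducible hexokinase gene Hk2 had 5.62 and 6.29 TPM at 1 h against 8.21, 8.07 and 9.71 TPM at 8 h. P4ha1, a collagen prolyl hydroxylase subunit, had 37.2 and 36.6 TPM at 1 h against 54.4, 47.0 and 50.5 TPM at 8 h, and Ero1l, a disulfide-forming oxidase of the endoplasmic reticulum, had 18.7 and 18.1 TPM at 1 h against 23.3, 24.7 and 24.0 TPM at 8 h. In Hk2, P4ha1 and Ero1l, as in Vegfa, replicate 14 lay with the other 8 h libraries rather than with the 1 h libraries. The related subunit P4ha2 had 1.65 and 1.86 TPM at 1 h against 4.85, 2.65 and 4.46 TPM at 8 h, and the secreted stanniocalcins Stc1 and Stc2 had 8.42 and 7.60 against 13.1, 9.20 and 12.2 TPM, and 4.55 and 6.99 against 10.5, 7.17 and 9.65 TPM. For these 3 genes replicate 14 lay nearer to the 1 h libraries than to the other 8 h libraries. It was the lowest of the 8 h libraries in them, and also in Hk2, P4ha1 and Vegfa. The time differences were 0.47 for Hk2, 0.44 for P4ha1, 0.37 for Ero1l, 0.83 for P4ha2, 0.46 for Stc1 and 0.59 for Stc2, and none passed adjustment (the lowest limma adjusted p was 0.296, for P4ha1). With series in the fit, the time differences were 0.38 for Hk2, 0.34 for P4ha1, 0.41 for Ero1l, 0.41 for P4ha2, 0.18 for Stc1 and 0.30 for Stc2.

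On the lower side, Cited2, a feedback inhibitor that competes with HIF for its coactivator, had 38.3 and 36.0 TPM at 1 h against 13.7, 28.8 and 15.3 TPM at 8 h. Its difference of -0.99 had an unadjusted p of 0.0187 and did not pass adjustment. With series in the fit, its time difference was -0.36, and its series difference of -0.94 had a limma adjusted p of 0.0157. Loxl2, a collagen cross-linking enzyme, had 10.5 and 11.01 TPM in series 2 and 1.91 to 2.51 TPM in series 1 (a series difference of 2.01, limma adjusted p 0.00632).

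**Figure D4:**
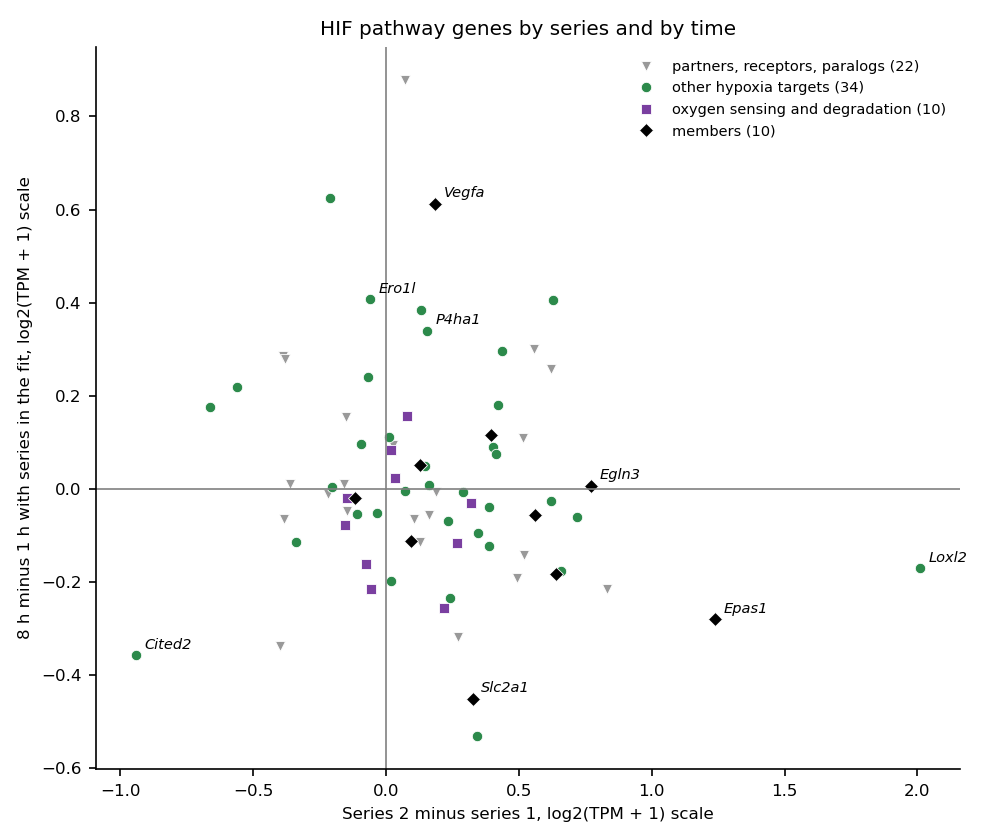
Series 2 minus series 1 (horizontal) against 8 h minus 1 h with series in the fit (vertical), both on the log2(TPM + 1) scale and both resting on 8 h replicate 14, for the 10 genes (diamonds) and the genes of 3 further lists that were tested. Vegfa lies high and near the vertical line (0.61 by time, 0.19 by series), Epas1 to the right (1.24), Loxl2 at the right end (2.01) and Cited2 to the left (-0.94).

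Among the 10 genes, the most alike profiles over the 5 libraries were those of Pdk1 and Egln1, with a root mean square difference of 0.06 between their centred log2(TPM + 1) values, followed by Egln1 and Adm at 0.09 and by Hif1a and Bnip3 at 0.10. The alpha subunits Hif1a and Epas1 were the least alike pair, at 0.61. Over all 5889 genes that varied enough to be compared, the profiles nearest to Epas1 were those of Fzd10 (0.05), Gper1 and Espl1, and 30 genes lay within 0.1. Vegfa was nearest to Zfp825, Mtfr1 and Tirap (0.07 each), with 11 genes within 0.1. Egln3 was nearest to Dpyd (0.02), Acsl5 and Isoc1 (0.03 each), with 211 genes within 0.1, so its profile was a common one in these libraries and that of Vegfa a rarer one.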

How the data were processed

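RNA-seq was done on 5 poly-A selected, strand-specific libraries, read from both ends. Per the submitters' processing notes, base calls were converted with bcl2fastq 2.19.1.403 from CASAVA and the genome build was GRCm38, and DESeq2 is named there as well. The authors ran nf-core/rnaseq with STAR and counted reads over Ensembl genes, and the deposited counts are whole reads per gene with no normalization, in a table that lists part of the genes. It had 0 other columns of values and 0 rows with no gene name. TPM, FPKM and per-base coverage per gene were deposited by the authors for each library, by a tool not given in the sources used here. These TPM values were summed per gene ID where a gene had several rows (15 to 20 rows per table). FPKM and coverage were used only as a ratio. Gene coordinates are those of these tables.

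Groups and replicate numbers came from the labels. TPM was tested with limma 3.58.1 in R 4.3.3 (intensity trend, log2(TPM + 1), genes with a mean of at least 1 TPM) and counts with edgeR 4.0.16 (quasi-likelihood, TMM, filterByExpr), each with Benjamini-Hochberg adjustment over all genes tested, and a call required an adjusted p of 0.05 or less together with a log2 fold change above 1 in either direction. Differences on the log2(TPM + 1) scale understate the change of low genes. The SE of an edgeR difference was taken from its F statistic. Errors of means are SD over 2 libraries at 1 h and 3 at 8 h. The scripts were tested on simulated data. Alternatives were DESeq2 1.42.0 (alpha 0.1), other size factors, pseudocount 0.1, no filter, no fold change threshold, median-ratio scaling, identifier series as a term, series 1 alone, and leaving out each library. The genes and lists were chosen with earlier results of these data known. Named besides the 10 genes are those of the lists with an unadjusted p under 0.05 and no overlap between groups, the most abundant of each list, those at 0 TPM throughout, and the 3 profiles nearest to each of the 3 most variable of the 10 genes. Arnt, Arnt2, Hif3a, Vhl, Flt1, Kdr, Vegfb, Calcrl, the Ramp genes, Loxl2, Pgk1, Pfkl, the other genes listed without overlap and the targets with means under 1 TPM were named after their values were seen. The marker genes Hes5, Tubb3, Mbp and Foxj1 meet the same rule, and all but Foxj1 enter here only through their lists' sums. The markers Map2, Dcx and P2ry12 were named after their values were seen. Elob and Eloc stand in the tables as Tceb2 and Tceb1. 1 member of the list of other hypoxia targets is not reported here by name and not drawn, though counts and medians over the list include it. Cells exposed to hydrogen peroxide were not analysed here.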

Additional observations from a re-analysis of the deposited data

How the results depend on the processing

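No paired analysis was possible because the groups share no replicate number. With TPM, 6 genes were called over all genes, 0 without the filter on low values, 19 with identifier series as a term, and between 0 and 568 when 1 library was left out, the highest without 8 h replicate 14. Counts called 0 genes under every alternative run. None of the 10 genes was called in any of these. Of the alternative values for the 10 genes, 92 in TPM and 58 in counts kept direction and side of the threshold, and 8 and 5 reversed. With series as a term and in series 1 alone, the TPM difference turned to -0.28 for Epas1, -0.18 for Pdk1 and -0.055 for Egln1, and the median of the 10 genes to -0.037. When 1 library was left out it ran from -0.16 to 0.058 for Bnip3 and from -0.032 to 0.31 for Ddit4, changing sign without 1 h replicate 1. In counts, series follows the column names, and the column named replicate 13 (series 2) matched the TPM table of replicate 14 (series 1). Series in counts thus groups other libraries than in TPM. There, series as a term gave -0.021 for Epas1, 0.070 for Slc2a1 and -0.28 for Adm. Leaving out 1 column gave -0.18 to 0.57 for Epas1 and -0.071 to 0.27 for Adm, changing sign without the column named 8 h replicate 15. The cause was not tested. The difference of Vegfa stayed positive throughout, from 0.53 without 1 h replicate 2 to 0.94 without 1 h replicate 1 in TPM. Median-ratio scaling moved the median of all genes from 0.10 to -0.0037 and the genes higher at 8 h without overlap from 23.7% to 15.0% (lower from 9.43% to 17.0%). Alternatives chosen after seeing the data left out each library or rescaled the counts of genes without overlap: by time, 3 of the 10 became 3 to 7. Without 1 h replicate 2 there were 3 higher and 3 lower, against 36.0% and 18.4% of all genes (6 in all), and without 8 h replicate 14 there were 6 higher and 1 lower, against 47.7% and 17.6% (7 in all). By series, 6 became 6 to 8 (6 or 7 higher and 0 to 2 lower), with all genes at 24.7% to 51.0% higher and 16.1% to 24.6% lower.

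The separation of time from series rests on 1 library, 8 h replicate 14, and the 3 genes outside the count table rest on TPM, whose depth per gene is not given.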
